A study of Homo sapiens with 42 samples.

Results

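The major histocompatibility complex (MHC) was examined in 42 libraries of the assay for transposase-accessible chromatin (ATACseq), which lists stretches of DNA that a transposase can cut. All peaks on chromosome 6 between 29 and 33.5 Mb of build hg38 were taken, together with all peaks on the alternate contigs of chromosome 6. These were 12734 of the 2689076 peaks of the series, with 2061 on the primary copy of the region. The other 10673 lay on the alternate contigs, of which there are 16, some of them without a peak. The MHC is present in hg38 as 1 primary copy and 7 alternate haplotype contigs, which are further versions of the same region taken from other people's genomes. They go by the names APD, COX, DBB, MANN, MCF, QBL and SSTO, and held 10025 of the alternate peaks. A further alternate contig, of 0.08 Mb, also aligns within the region and held no peak.

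All libraries were made from MCF10A, 1 established line of immortalised, non-tumour breast epithelial cells, grown on collagen-1. Cells were held for 18 h in experimental medium without EGF or insulin and then treated in the same medium, so the controls lacked these factors too. CTRL cells (n = 4), whose treatment label reads PBS, were taken at 0 h. The other cells were taken at 24 h and 48 h after PBS (n = 3 at each time), EGF at 10 ng/ml (n = 4), HGF at 40 ng/ml (n = 3), OSM at 10 ng/ml (n = 3), TGFB at 10 ng/ml with EGF at 10 ng/ml (n = 3), or IFNG at 20 ng/ml with EGF at 10 ng/ml (n = 3). The main comparison was IFNG with EGF against EGF, which asked how giving interferon-gamma (IFNG) together with EGF differed from giving EGF alone. All libraries came from a single line, so p-values measure only the spread between these cultures.

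Class I molecules show peptides from inside a cell to cytotoxic T cells, and class II molecules show peptides from ingested material to helper T cells. TAP1 and TAP2 form the pump that carries peptides to class I molecules, TAPBP links the pump to class I, and PSMB8 and PSMB9 are subunits of the immunoproteasome that cuts the peptides. Interferon-gamma acts through IRF1 and, for class II, the coactivator CIITA, and is the classical inducer of class II genes in cells that do not otherwise use them. Class II promoters carry a conserved group of boxes that ends in a CCAAT box.

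The sequences on which the results turn are given here with motif matches in capitals. The motifs, searched on both strands, were TTCNNNGAA (the gamma-interferon activation site, GAS), GAAANNGAA (the core of the interferon-stimulated response element, ISRE, bound by IRF factors), TGANTCA (AP-1) and CCAAT. Promoters were taken from RefSeq (GRCh38.p14), from 250 bases before to 50 after the start, and read in the direction of the gene. The 3 other windows are 201 bp of hg38 around a summit, on the plus strand. For antigen processing, a promoter of TAP1 (chr6:32853655-32853954, minus strand) and one of PSMB8 (chr6:32843998-32844297, minus strand) are printed, and the reference holds another promoter of each. HLA-DMA (chr6:32953048-32953347, minus strand), HLA-DRB1 (chr6:32589799-32590098, minus strand) and HLA-DQB1 (chr6:32666608-32666907, minus strand) stand for class II. The windows lie past the 3′ end of HLA-B (chr6:31351753-31351953), past the 3′ end of HLA-C (chr6:31266813-31267013) and beside the pseudogene HLA-DRB9 (chr6:32473574-32473774).
TAP1 promoter: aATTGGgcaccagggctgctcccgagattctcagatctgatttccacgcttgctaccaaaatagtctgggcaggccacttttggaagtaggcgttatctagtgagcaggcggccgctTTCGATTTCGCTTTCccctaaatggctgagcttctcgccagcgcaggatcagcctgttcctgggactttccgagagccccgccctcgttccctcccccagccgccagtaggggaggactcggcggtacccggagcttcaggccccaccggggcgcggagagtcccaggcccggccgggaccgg
PSMB8 promoter: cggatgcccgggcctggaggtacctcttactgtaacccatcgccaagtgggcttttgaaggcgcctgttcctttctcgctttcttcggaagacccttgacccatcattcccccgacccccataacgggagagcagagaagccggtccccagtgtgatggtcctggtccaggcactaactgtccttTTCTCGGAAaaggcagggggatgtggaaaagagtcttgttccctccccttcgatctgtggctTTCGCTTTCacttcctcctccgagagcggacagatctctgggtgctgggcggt
HLA-DMA promoter: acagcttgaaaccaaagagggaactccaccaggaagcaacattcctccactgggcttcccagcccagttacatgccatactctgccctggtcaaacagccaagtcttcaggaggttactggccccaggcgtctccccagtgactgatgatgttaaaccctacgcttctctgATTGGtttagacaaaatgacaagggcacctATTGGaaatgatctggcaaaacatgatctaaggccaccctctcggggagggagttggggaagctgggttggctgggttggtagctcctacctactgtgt
HLA-DRB1 promoter: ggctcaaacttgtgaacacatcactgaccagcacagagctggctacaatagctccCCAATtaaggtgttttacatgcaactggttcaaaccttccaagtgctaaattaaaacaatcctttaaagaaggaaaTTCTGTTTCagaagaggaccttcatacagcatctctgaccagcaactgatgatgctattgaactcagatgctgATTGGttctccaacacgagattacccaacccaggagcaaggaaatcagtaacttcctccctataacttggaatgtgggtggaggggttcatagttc
HLA-DQB1 promoter: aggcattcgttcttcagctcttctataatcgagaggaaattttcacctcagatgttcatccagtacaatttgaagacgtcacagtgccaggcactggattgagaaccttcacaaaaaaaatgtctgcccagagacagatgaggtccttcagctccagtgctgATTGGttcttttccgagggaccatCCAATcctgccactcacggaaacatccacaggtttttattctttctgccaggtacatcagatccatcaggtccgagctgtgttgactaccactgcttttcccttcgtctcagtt
HLA-B window: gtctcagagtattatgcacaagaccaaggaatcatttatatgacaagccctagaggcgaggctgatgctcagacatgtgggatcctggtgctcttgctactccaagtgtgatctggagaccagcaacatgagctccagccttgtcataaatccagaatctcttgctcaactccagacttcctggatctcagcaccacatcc
HLA-C window: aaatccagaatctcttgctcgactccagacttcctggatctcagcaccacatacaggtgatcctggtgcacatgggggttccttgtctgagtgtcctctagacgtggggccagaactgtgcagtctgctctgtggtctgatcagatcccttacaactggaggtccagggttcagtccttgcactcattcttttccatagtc
HLA-DRB9 window: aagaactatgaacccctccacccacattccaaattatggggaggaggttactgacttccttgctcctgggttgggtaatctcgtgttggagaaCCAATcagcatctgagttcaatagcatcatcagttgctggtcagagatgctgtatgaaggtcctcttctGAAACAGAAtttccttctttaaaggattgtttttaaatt

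The printed TAP1 promoter held a pair of overlapping GAAANNGAA matches, in reverse orientation to the gene, at positions -133 and -127 from the start, and a CCAAT match at position -249. The printed PSMB8 promoter held a TTCNNNGAA match at position -65 and a GAAANNGAA match at position -3. The other PSMB8 promoter (chr6:32844630-32844929) held no match to the 4 motifs. The other TAP1 promoter (chr6:32852712-32853011) held a TTCNNNGAA match at position -189 and no GAAANNGAA match. The PSMB9 promoter held a CCAAT match and neither GAS nor ISRE, while that of TAPBP held 2 GAAANNGAA matches. CCAAT matches lay at positions -79 and -49 of HLA-DMA, -195 and -46 of HLA-DRB1, and -88 and -64 of HLA-DQB1. HLA-DRB1 also held a GAAANNGAA match at position -119. Among 35116 promoters of the reference, 7.66% held TTCNNNGAA, 8.11% held GAAANNGAA and 34.6% held CCAAT. The HLA-B and HLA-C windows held no match to the 4 motifs and shared a run of 31 identical bases. The HLA-DRB9 window held a GAAANNGAA and a CCAAT match and shared a run of 94 identical bases with the window around the start of HLA-DRB1, so reads from one can be placed on the other. A match is a description of the letters and not a site shown to be bound.

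The number of listed peaks, which includes every summit of a shared interval, ran from 4217 to 113805 per library, and 8 libraries had fewer than 30000. CTRL libraries had 109226 to 113805, and IFNG with EGF at 48 h replicate C had 6742. The paper states that ATACseq libraries with a low fraction of reads in peaks failed its quality check, low-quality IFNG with EGF samples among them. All 42 libraries were kept here, and the labels used do not name those that failed. Read counts were not among the values, which leaves the depth unknown, and no counting interval is given. Of 7 epithelial markers, 6 had a peak at a start in 10 to 35 of the 42 libraries (KRT5 in 31, KRT14 in 10, KRT17 in 29, CDH1 in 28, EPCAM in 26, LAMB3 in 35), while the start of TP63, which encodes a factor of basal cells, had none. Of the immune markers, PTPRC, CD3E and SPI1 had no peak in any library and CIITA had 1 in 27 libraries. Of 4 fibroblast and endothelial markers, COL1A1 had a peak in 6 libraries and PDGFRA, PECAM1 and CDH5 in none.

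Peaks were sparse on the primary copy. It held 10.9 ± 9.07 peaks per Mb, against 43.6 ± 24.0 in the stretches of 4.5 Mb on either side of it (SD, n = 42), and was the lower in 42 of 42 libraries (permutation test over libraries, two-sided, p = 2e-05, the smallest it can give, adjusted p = 2e-05 over 3 comparisons). The same held when only gene starts were counted. A peak within 1000 bp of a start on the primary copy was found for 21.7% ± 16.5 of the 171 protein-coding genes of the region, against 52.5% ± 18.2 of the 19247 genes elsewhere (SD, n = 42), lower in 42 of 42 libraries (permutation p = 2e-05, adjusted p = 2e-05).

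Counting the alternate copies too closed part of that gap. A start with a peak on any copy was found for 32% ± 20.9 of MHC genes (SD, n = 42), which was still below the share elsewhere in 42 of 42 libraries (permutation p = 2e-05, adjusted p = 2e-05). In at least 1 library, 96 of the 171 genes (56.1%) had a start with a peak on the primary copy and 107 (62.6%) on any copy, against 72.6% of genes elsewhere. The authors' steps name no filter on mapping quality. Reads that match several copies equally well are placed on 1 of them by the aligner, and the part of this placement in these values was not tested. In its comparison of gene starts with RNA, the paper left out genes of the MHC. It gives as the reason that reads aligned poorly there owing to the alternate contigs.

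**Figure D1:**
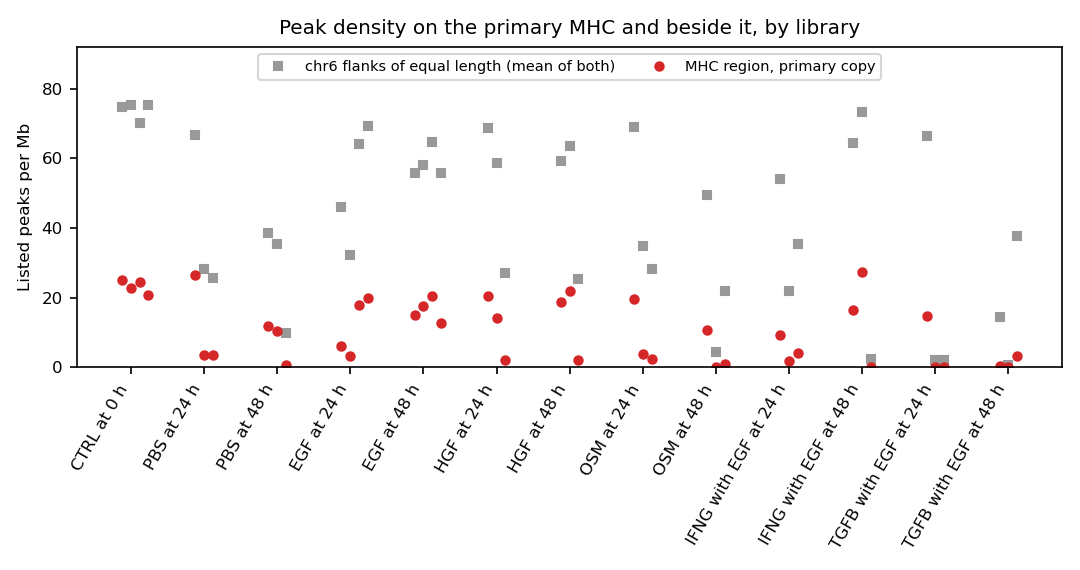
Listed peaks per Mb (y axis) in each of the 42 libraries, by group (x axis, replicates A to C or D from left to right). Red points are the primary copy of the MHC and grey squares are the mean of the stretches of equal length on either side of it, and the red point lies below the grey square of the same library in 42 of 42 libraries.

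The share of a library's peaks on the MHC moved with its number of listed peaks. In the 22 libraries with at least 60000 peaks the primary copy held 0.0455% to 0.123% of peaks (median 0.09015%), and in the 20 others it held 0% to 0.105% (median 0.0262%). The alternate contigs held 0.203% to 0.736% (median 0.483%) and 0.0424% to 0.465% (median 0.11%) in the same libraries. The density of the primary copy relative to its flanks was 0.135 to 0.397 (median 0.285) in the first set and 0 to 0.31 (median 0.0843) in the second. No peak on the primary copy was listed in 4 libraries: IFNG with EGF at 48 h replicate C, TGFB with EGF at 24 h replicates B and C, and TGFB with EGF at 48 h replicate B.

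CTRL libraries held 93 to 113 primary peaks and 531 to 618 alternate peaks. As shares of all peaks these were 0.0936% ± 0.0097 and 0.506% ± 0.0425 (SD, n = 4), and chromosome 6 held 26.5% ± 1.05 of all alternate peaks. Over the whole series the primary copy held 0.0766% of peaks, the chromosome 6 contigs held 0.397%, and the latter made up 23.7% of the 45117 peaks on alternate contigs.

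The haplotype contigs did not share the peaks evenly. COX, the only one of them without gaps, held 2291 peaks over all libraries, or 478 per Mb of known sequence, and QBL held 1617 (377 per Mb). DBB held 1483 (353 per Mb), SSTO 1340 (321), MANN 1330 (325) and MCF 1289 (340). APD, which covers 47.81% of the region against 79.26% to 96.59% for the others, held 675 (285 per Mb). Their aligned sequence was 97.46% to 99.05% identical to the primary copy, which held 2061 peaks over 4.5 Mb.

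The order was not the same over sequence that all copies hold. Over the 1.4 Mb that all 7 contigs share with the primary copy, COX held 5.97 peaks per Mb per library, QBL 5.67, the primary copy 5.02 and MANN 4.93, against 3.95 for APD, 3.9 for DBB, 3.49 for MCF and 3.28 for SSTO. These are 351, 333, 295, 290, 232, 229, 205 and 193 peaks summed over the libraries. Over this shared sequence the peaks lay on all 8 copies, and the primary copy was not the one with the most. The copies align to each other, so these values are not independent and no test is given.

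Alternate peaks were placed on the primary copy by alignment, and peaks that overlapped were merged into 223 loci with a peak in at least 2 libraries. Of these, 154 had peaks on the primary copy and on an alternate copy, 64 on alternate copies only and 5 on the primary copy only, while the primary copy alone gave 134 sites. Annotation placed 127 loci between genes, 49 in introns, 35 in untranslated exons and 12 in coding exons. Sequence identity between the copies moved with where a peak was listed. Of the 35 loci whose 201 bp around the summit matched no alternate copy exactly, 17 never had a peak on the primary copy, and 36.8% of their detections included one. The share was 55.3% for loci identical in 1 or 2 copies, 59.5% for 3 or 4, and 56.1% for 5 to 7.

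The CCAAT box was found in 80 of the 223 loci (35.9%), against 24.7% of 7018 sites elsewhere on chromosome 6. AP-1 matches went the other way, with 48 loci (21.5%) against 39%. GAS matches were found in 14 loci (6.28% against 6.78%) and ISRE matches in 19 (8.52% against 8.63%). These shares describe the windows and were not tested.

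The share of peaks on the MHC was not shown to differ between IFNG with EGF and EGF. At 24 h the EGF libraries held 28, 15, 81 and 90 primary peaks, which were 0.0455%, 0.034%, 0.0945% and 0.0873% of their peaks, and the IFNG with EGF libraries held 42, 8 and 19 (0.0544%, 0.0285% and 0.0427%). At 48 h the EGF libraries held 68, 79, 92 and 57 (0.0904%, 0.0978%, 0.104% and 0.0711%), and the IFNG with EGF libraries held 74, 123 and 0 (0.0904%, 0.123% and 0%). The groups overlapped at both times, and the lowest and the highest values of the 14 libraries were both IFNG with EGF at 48 h.

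Averaged over libraries, the primary share was 0.0565% ± 0.0442 with IFNG (SD, n = 6) and 0.0781% ± 0.0257 in EGF (SD, n = 8). The difference within times was -0.0216 percentage points (exact permutation test within times, two-sided, p = 0.256, adjusted p = 0.525 over 3 shares, where the smallest p is 0.000816), and 1 of 6 libraries lay above the EGF mean of its time. It was -0.0234 at 24 h and -0.0197 at 48 h, which did not differ by the test of the difference (exact permutation p = 0.937). Of these 14 libraries, IFNG with EGF at 24 h replicate B and at 48 h replicate C had fewer than 30000 peaks, and without them the difference was -0.000439 (exact permutation p = 0.987).

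The alternate share gave a similar picture. The EGF libraries held 125, 57, 432 and 544 peaks on chromosome 6 alternate contigs at 24 h and 278, 394, 521 and 306 at 48 h. The IFNG with EGF libraries held 230, 33 and 92 at 24 h and 422, 735 and 4 at 48 h, so that the extremes were again the 48 h replicates B and C. The shares of all peaks were 0.322% ± 0.258 (SD, n = 6) and 0.399% ± 0.162 (SD, n = 8), a difference of -0.077 (exact permutation p = 0.487, adjusted p = 0.525). The EGF mean of its time was exceeded by 2 of 6 libraries. Without the libraries under 30000 peaks the sign turned, to 0.0399 (exact permutation p = 0.671).

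Of all alternate peaks, chromosome 6 held 20.3%, 12% and 17.6% in IFNG with EGF at 24 h, and 28.6%, 34.6% and 4.3% at 48 h. In EGF it held 14.9%, 11.6%, 27.4% and 28% at 24 h, and its shares at 48 h were 22.5%, 26%, 29.4% and 23.2%. The means were 19.6% ± 11 (SD, n = 6) and 22.9% ± 6.44 (SD, n = 8), and differed by -3.31 points (exact permutation p = 0.525, adjusted p = 0.525). Without the libraries under 30000 peaks the difference was 2.4 points (exact permutation p = 0.502).

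Lanes, read from the file names, were mixed over the treatments. Within the 5 lanes, with 1 or 2 libraries of each treatment, the difference in the primary share was 0.0305, -0.0012, -0.0551, -0.0039 and -0.104 points for lanes 4 to 8 in order. The alternate share differed by 0.299, -0.0125, -0.281, 0.0055 and -0.532 points, and the share of alternate peaks by 9.65, 0.5, -8.4, 1.25 and -25.1 points. The sign was not the same in all lanes for any of the shares.

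**Figure D2:**
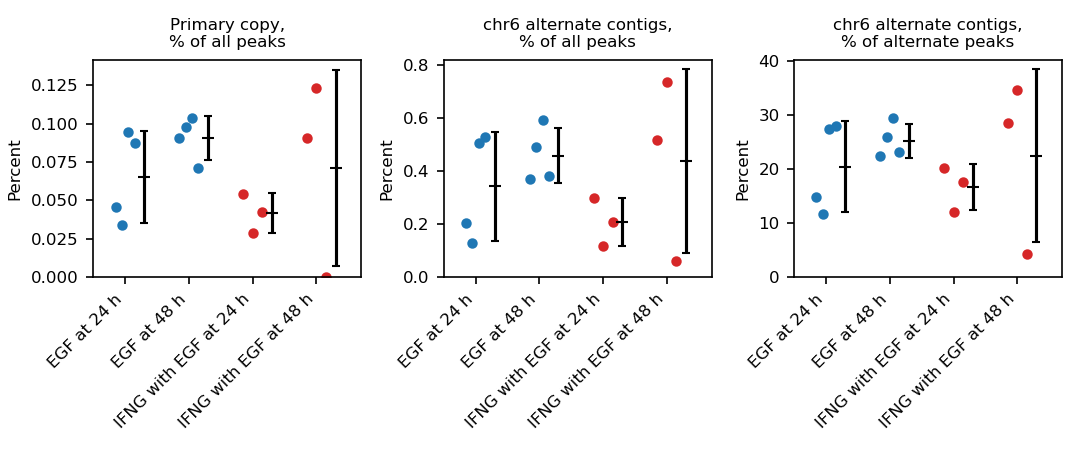
Percent of peaks on the primary MHC, percent on chromosome 6 alternate contigs, and percent of alternate peaks on chromosome 6 (y axes) for the EGF and the IFNG with EGF libraries at 24 h and 48 h (x axes). Points are libraries, bars are the mean ± SD, and IFNG with EGF at 48 h spans 0% to 0.123% in the first panel, wider than the 0.0711% to 0.104% of EGF at 48 h.

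Single sites were compared by adjusted detection, which is 1 or 0 for a peak in a library minus the share of sites of the same frequency that this library detects, so that libraries with short peak lists are not read as losses. A site was called where its adjusted p fell below 0.01 and its difference reached 0.5 (limma, Benjamini-Hochberg over the whole genome). In a bulk library, a peak lost from some cells and a weaker peak in all cells cannot be told apart.

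On the primary copy, 1 of 134 MHC sites (0.746%) was called in IFNG with EGF against EGF, against 1.36% of all 129344 sites. This site (chr6:33297795-33298368) lies in an untranslated exon shared by PFDN6, a subunit of the prefoldin chaperone, and RGL2, an effector of Ras-family GTPases, 804 bp from the RGL2 start. It had a peak in 1 of 3 libraries of IFNG with EGF at 24 h, 2 of 3 at 48 h, 1 of 4 of EGF at 24 h and 0 of 4 at 48 h. The difference was 0.595 (limma adjusted p = 0.00665). The peak was also listed in 4 of 4 CTRL and 5 of 6 HGF libraries. The call did not hold when the copies were joined: the locus then had a peak in 2 of 4 and 4 of 4 EGF libraries at 24 h and 48 h, and the difference was 0.071 (limma adjusted p = 0.901). With peaks of a negative log10 q of at least 5 alone the difference was -0.0275. Without IFNG with EGF at 24 h replicate B or at 48 h replicate C, 2 primary sites were called, and none was called without any one of EGF at 24 h replicates A or C, EGF at 48 h replicates B, C or D, or IFNG with EGF at 24 h replicate A or at 48 h replicates A or B.

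When the copies were joined, 2 of 223 loci (0.897%) were called, against 1.36% of 129433 sites and loci. Copies were joined in the region only, and sites elsewhere were counted on the primary chromosomes alone. The 2 called loci lay at the start of HLA-DMA and between genes past the 3′ end of HLA-B, and both were higher with IFNG. At an unadjusted p below 0.05, 31 of the 223 loci were higher and 13 lower. Over all 129433 sites and loci, 17914 passed it in either direction. Among the 223 loci, 12 had peaks in at least 2 IFNG with EGF libraries and in no other library, so their direction was given in advance. The median difference over the loci was 0.00155, against -0.0306 over all sites. When only the 4 groups compared were fitted, neither locus was called, and without IFNG with EGF at 24 h replicate B or C or at 48 h replicate C, 6, 5 and 7 loci were called.

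HLA-DMA encodes the alpha chain of the chaperone that loads peptides on class II molecules. The locus (chr6:32952942-32953396, 63 bp from a start) had a peak on some copy in 3 of 3 libraries of IFNG with EGF at 24 h and 2 of 3 at 48 h, against 0 of 4 and 1 of 4 in EGF. The fold enrichment at the highest summit was 7.71, 5.24 and 4.98 in IFNG with EGF at 24 h, and 8.46 and 13 in replicates A and B at 48 h. The lone EGF library, replicate B at 48 h, had 5.09.

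The adjusted detection of HLA-DMA differed by 0.97 ± 0.137 (SE, limma adjusted p = 2.29e-05). It was called at 24 h, where the difference was 1.29, and not at 48 h, where it was 0.653 (limma adjusted p = 0.0486), and these were not shown to differ (limma adjusted p = 0.612 for the change between times). The call was lost with raw detection (0.708, limma adjusted p = 0.0467), with peaks of a negative log10 q of at least 5 alone (0.601, limma adjusted p = 0.0389) and with the 4 groups alone (0.947, limma adjusted p = 0.0638). On the primary copy alone the difference was 0.534 (limma adjusted p = 0.0644). The peak was listed on all 8 copies in IFNG with EGF at 24 h replicate A and at 48 h replicates A and B, and on 1 copy in the EGF library. The 7 alternate copies matched the primary promoter exactly, as printed above, so the copy from which a read came cannot be told there. Libraries without IFNG also listed the peak: CTRL had it in 4 of 4 libraries with a fold enrichment of 8.41, 5.32, 4.43 and 3.73, and HGF had it in 4 of 6, while PBS, OSM and TGFB with EGF each had it in 1 of 6.

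The locus past HLA-B (chr6:31350713-31352572) lies between genes, 2022 bp past the end of the canonical HLA-B transcript and 5305 bp from its start. It had peaks on COX, MCF and QBL and none on the primary copy. The fold enrichment was 4.61 and 6.47 in IFNG with EGF at 24 h replicates A and C, and 6.23 and 5.57 at 48 h replicates A and B. None of the 36 libraries of other groups listed it. The locus met the minimum of 2 libraries only through IFNG with EGF libraries, so its call was bound to be in that direction and its values are given as a description. The difference was 0.64, and it was 0.463 when only alignment blocks of at least 50 kb were used.

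Split by time, 1 locus (0.448%) was called at 24 h, where 0.444% of all sites were, and 8 loci (3.59%) at 48 h, where 1.33% were. Of the 8, 7 were higher and 1 was lower. The 7 were peaks of IFNG with EGF at 48 h replicates A and B that no other library listed, with a difference at 48 h of 0.602 each: at the start of HLA-DQA1, at a start of HLA-DQB1, 14834 bp from HLA-DRB1, at the pseudogene HLA-DRB9, past the end of HLA-C, 20025 bp from HLA-DOA, and beside HLA-V, 36119 bp from HLA-G. These 7 met the minimum of 2 libraries only through that group, so their count and the share of 3.59% are a description. The lower one (chr6:30520983-30521437, 31775 bp from HLA-E) had a peak in 4 of 4 EGF libraries at 48 h, 2 of 4 at 24 h and 4 of 4 in CTRL, and in 0 of 6 with IFNG (difference at 48 h -0.743, limma adjusted p = 0.00184). No MHC locus was called for the change of the IFNG effect between the times (limma). At an unadjusted p below 0.05, 15 were higher and 9 lower, and 8609 of all 129433 sites and loci passed it in either direction.

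In all, 12 loci (5.38% of 223) had peaks in at least 2 IFNG with EGF libraries and in no other library, against 2.78% of all sites. The loci join all copies of the region, while sites elsewhere were counted on the primary chromosomes alone, so these shares are not counted alike. Of the 12 loci, 9 held a CCAAT box within the 201 bp window, 2 a GAS match, 2 an ISRE match and 1 an AP-1 match. Over all 223 loci the shares were 35.9%, 6.28%, 8.52% and 21.5% in that order. The windows are not independent, since those of HLA-DRB9 and HLA-DRB1 share a run of 94 bases, and these counts were not tested. The 12 included 4 loci at starts of class II genes and the loci past the 3′ ends of HLA-B and HLA-C.

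Past class I genes, the HLA-C locus (chr6:31266393-31267048) lay 1836 bp beyond the end of the canonical transcript and the HLA-B locus 2022 bp beyond. HLA-C was listed on the primary copy and MCF, at 4.95 and 5.14 in 48 h replicates A and B.

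Among class II loci, the start of HLA-DRB1 (chr6:32589631-32590168) was listed on DBB, MANN and MCF, with a fold enrichment of 4.08, 5.79 and 10.7 in IFNG with EGF at 24 h replicate A and at 48 h replicates A and B. A locus 139 bp from a start of HLA-DQB1 (chr6:32668357-32668805) had 4.08, 9.79 and 7.43 in the same libraries, on DBB, MANN and SSTO. Both had a difference of 0.463, given without a test since only IFNG with EGF libraries brought them past the minimum of 2. The main start of HLA-DQB1 (chr6:32666455-32667034) had 8.9 and 10.4 and that of HLA-DQA1 (chr6:32637180-32637442) 6.23 and 9.29, at 48 h only. None of these 4 had a peak on the primary copy, whose windows matched no haplotype exactly.

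The HLA-DRB9 locus (chr6:32473518-32473940), 174 bp from that pseudogene, had 4.9 and 6.5 on DBB and SSTO in one library and on MANN and MCF in the other. The locus 14834 bp from HLA-DRB1 (chr6:32604324-32604968) had 8.01 and 7.43. The DRB genes differ in number between haplotypes and resemble each other, so the gene to which these peaks belong is uncertain. The locus 9458 bp from HLA-DOA (chr6:33018937-33019191) was listed on DBB alone, at 6.35 in 24 h replicate A and 13 in 48 h replicate B.

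**Figure D3:**
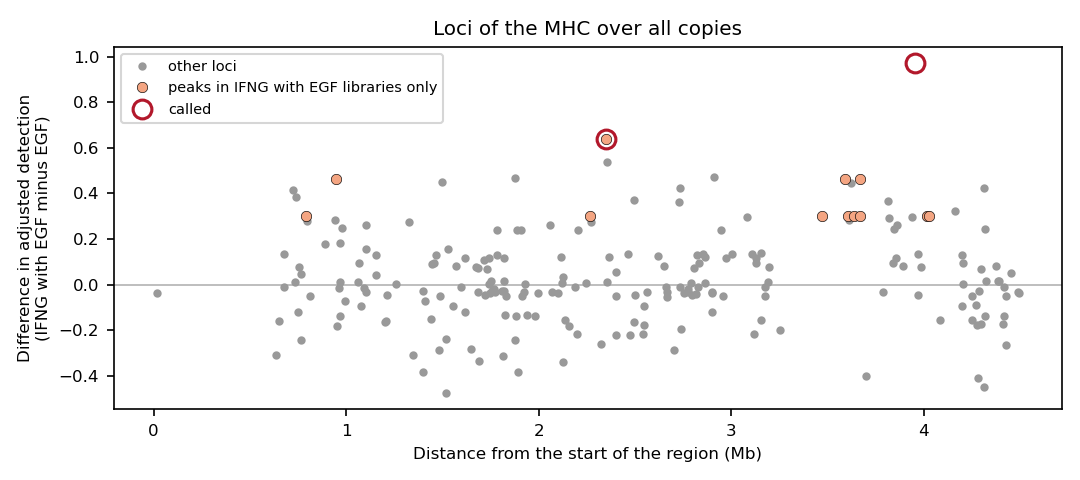
Difference in adjusted detection between IFNG with EGF and EGF (y axis, no unit) for the 223 MHC loci over all copies, by distance from the start of the region at 29 Mb (x axis, Mb). Orange points are the 12 loci with peaks in IFNG with EGF libraries only and red circles the 2 called loci, of which HLA-DMA is the highest at 0.97.

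Antigen processing genes had open starts in most libraries with long peak lists, with or without IFNG. TAP2, a chain of the peptide pump, had a peak at a start in 31 of 42 libraries, PSMB9 in 28, TAP1 in 27, PSMB8 in 23 and TAPBP in 16. For TAP1, the other chain, the fold enrichment in EGF was 7.0, 10.5 and 9.97 in replicates A, C and D at 24 h and 6.84, 9.67, 13.7 and 9.02 at 48 h. In IFNG with EGF it was 7.26 and 4.28 in replicates A and B at 24 h and 8.46 and 13.1 in replicates A and B at 48 h, and the ranges overlapped. TAP1 and PSMB9 lie head to head, and the locus nearest to a start was the same for both. In IFNG with EGF at 24 h replicate C, PSMB9 had a peak where TAP1 had none, at the 5.97 that PSMB8 had there.

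None of the 5 processing genes was called, and their median difference was 0.118. TAP1 and PSMB9 differed by 0.118 (limma adjusted p = 0.806), TAP2 by 0.094 (0.819), PSMB8 by 0.246 (0.41) and TAPBP by -0.448 (0.174). For TAPBP this was the locus nearest to any of its starts, in 7 libraries, while the one 50 bp from another start, in 13 libraries, differed by 0.425 (limma adjusted p = 0.388). On the primary copy alone PSMB8 differed by 0.46 (limma adjusted p = 0.053) and by 0.739 at 24 h (limma adjusted p = 0.049), TAP1 and PSMB9 by 0.242 (0.457) and TAP2 by -0.052 (0.943). The TAPBP sites there differed by -0.412 (limma adjusted p = 0.0677) and 0.135 (0.898). PSMB8 had a peak in 4 of 6 libraries with IFNG and 6 of 8 without, at 5.9 to 10.7 against 5.47 to 8.24. TAPBP had one in 3 of 6 and 4 of 8, and these were the weakest of the list, at 3.46 to 5.48 over all libraries.

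Class I starts were open in the same way. HLA-C had a peak in 29 of 42 libraries, MICA and MICB, which are stress ligands of natural killer cells, in 28 each, HLA-F in 26, HLA-B in 25 and HLA-E in 24. HLA-G, known from the placenta, had none. Which copy carried the peak differed between genes: HLA-C had it on the primary copy in 26 of its 29 libraries, MICA in 24 of 28 and HLA-E and MICB in 17 each, while HLA-B had it there in 6 of 25 and HLA-F in 1 of 26.

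HLA-C had a fold enrichment of 4, 7.93 and 12.9 in EGF at 24 h replicates A, C and D, and of 11.9, 8.62, 12.1 and 8.09 at 48 h. With IFNG it was 7.59, 4.76 and 7.39 at 24 h and 10.6 and 10.4 in replicates A and B at 48 h. The groups overlapped, and the library without a peak in each treatment was the one with its shortest list. HLA-F, a non-classical molecule, reached 15.6 in IFNG with EGF at 48 h replicate B and 14.7 in EGF at 24 h replicate D. Its peak lay on 1 alternate copy in each EGF library that listed it. With IFNG it lay on 2, 1 and 1 at 24 h, and on 5 and 4 in replicates A and B at 48 h. Replicate B at 48 h also held its only peak on the primary copy. HGF at 24 h replicate A had it on 3 alternate copies.

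None of the 7 class I genes with a peak was called, and their median difference was 0.12. HLA-F differed by 0.417 (limma adjusted p = 0.181), and HLA-C by 0.275 (0.423). HLA-B had loci at separate starts. The one at an upstream start (chr6:31366817-31367364), in 25 libraries, differed by 0.12 (limma adjusted p = 0.729). The one at the main start (chr6:31356799-31357587), in 16 libraries, differed by 0.537 (limma adjusted p = 0.099) and by 0.871 at 48 h (limma adjusted p = 0.0464), with a peak in 3 of 4 EGF and 2 of 3 IFNG with EGF libraries at 24 h and in 0 of 4 and 2 of 3 at 48 h. HLA-E, MICB and MICA differed by -0.05, -0.047 and -0.048 (limma adjusted p = 0.943 each), and MICA by -0.386 on the primary copy alone (limma adjusted p = 0.0997).

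Most class II starts had peaks in few libraries or none. Of the 13 class II genes, 9 had a peak at a start in at least 1 library, and 6 of them had it in IFNG with EGF libraries only: HLA-DRA, HLA-DRB1, HLA-DRB5, HLA-DQA1, HLA-DQB1 and HLA-DPB1, which encode chains of the classical DR, DQ and DP molecules. Of 19418 protein-coding genes, 0.561% had a peak at a start in IFNG with EGF libraries only, or 0.775% of those with a peak in any library. Genes outside the region were counted on the primary chromosomes alone, so these shares are not counted like the class II genes, which were counted on any copy. HLA-DRB1 and HLA-DQB1 had it in 3 of 42 libraries, HLA-DQA1 in 2, and HLA-DRA, HLA-DRB5 and HLA-DPB1 in 1 each. HLA-DQA2, HLA-DQB2, HLA-DPA1 and HLA-DOA had none.

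Counted per library, class II genes with a peak numbered 4, 1 and 1 in IFNG with EGF at 24 h and 6, 9 and 0 in IFNG with EGF at 48 h. In EGF they numbered 0 or 1 in each library, CTRL had 2 in each library, and the highest of the other libraries was HGF at 24 h replicate A with 3. IFNG with EGF at 48 h replicate C, with the count of 0, listed 6742 peaks. At like numbers of peaks, IFNG with EGF at 24 h replicate A had 4 with 77174 peaks and EGF at 48 h replicate B had 1 with 80816. Among shorter lists, IFNG with EGF at 24 h replicates B and C had 1 each, with 28109 and 44456 peaks. EGF at 24 h replicate B had 0 with 44099. The part of peak number in these counts was not tested.

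The count of 6 genes rested on 1 library for HLA-DRA (fold enrichment 7.43), HLA-DRB5 (8.82) and HLA-DPB1 (5.11), all in IFNG with EGF at 48 h replicate B. Without that library the count was 3. With alignment blocks of at least 50 kb the count was 5, as HLA-DRB5 dropped out. Its peak lay on 2 alternate copies and not on the primary copy. The DRB genes resemble each other, so the gene to which the HLA-DRB1 and HLA-DRB5 peaks belong is uncertain. On the primary copy alone only HLA-DRA and HLA-DMB were found in IFNG with EGF libraries and no others. Of the 6 class II genes with a locus in at least 2 libraries, HLA-DMA alone was called and none was lower, with a median difference of 0.335. HLA-DRB1, HLA-DQA1 and HLA-DQB1 entered that fit only through IFNG with EGF libraries, so the median is a description.

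The genes of the DM and DO chaperones had peaks in other groups too. HLA-DMB had a peak in 2 of 6 libraries with IFNG, both at 48 h with a fold enrichment of 4.01 and 6.97, and in HGF at 24 h replicate A. HLA-DOB, which tempers HLA-DM, had one in 19 of 42 libraries, 3 of 6 with IFNG and 4 of 8 in EGF. CIITA, the coactivator of class II genes, lies on chromosome 16. It had a peak within 1000 bp of a start in 5 of 6 libraries with IFNG, 7 of 8 in EGF, 4 of 4 in CTRL and 1 of 6 in PBS. The PBS library with the peak was 24 h replicate A, which listed 104875 peaks, and the other PBS libraries listed 16265 to 51628. Of other groups with lists in that range, replicate B at 24 h of EGF, of OSM and of IFNG with EGF had the peak. So did IFNG with EGF at 24 h replicate C and TGFB with EGF at 48 h replicate A. Replicate C of HGF and of OSM, at 24 h and at 48 h, did not. The part of list length in this was not tested.

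**Figure D4:**
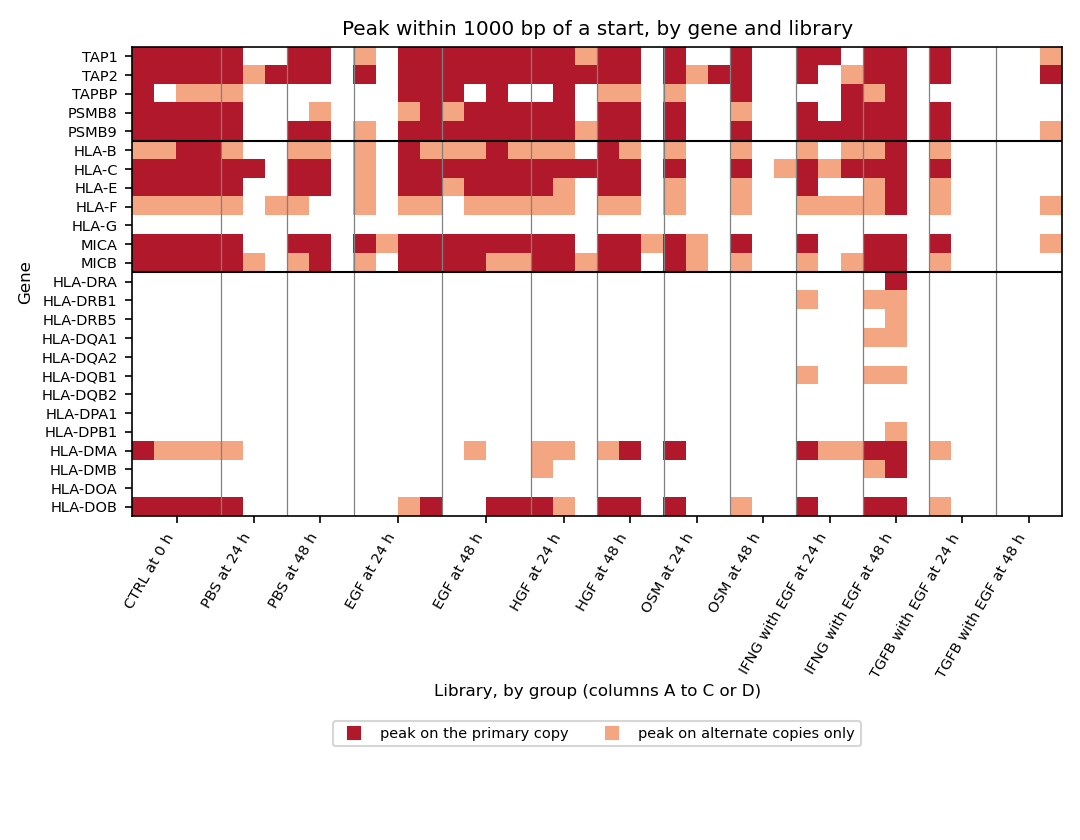
Genes of antigen processing, class I and class II (y axis, separated by lines) with a peak within 1000 bp of a start in each library (x axis, by group). Dark red marks a peak on the primary copy and orange a peak on alternate copies only, and the starts of HLA-DRB1, HLA-DQA1 and HLA-DQB1 are coloured in IFNG with EGF libraries only, all on alternate copies.

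**Figure D5:**
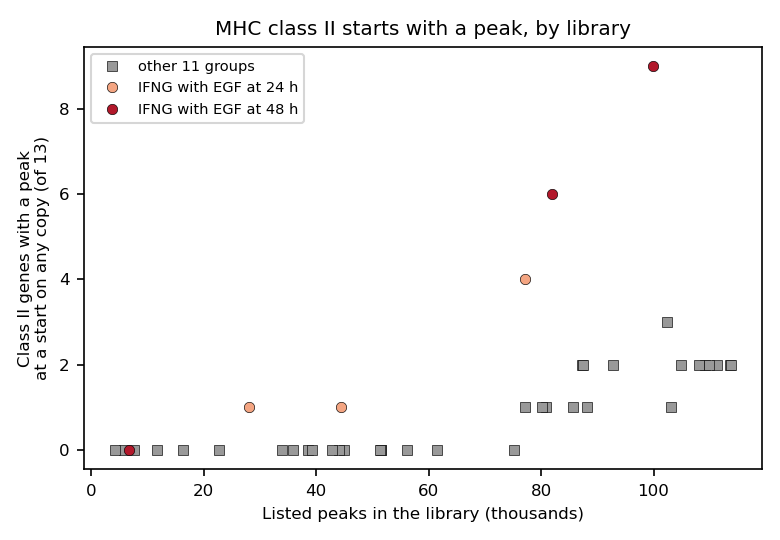
Number of the 13 class II genes with a peak at a start on any copy (y axis, count) against the number of listed peaks (x axis, in units of 1000 peaks), 1 point per library. IFNG with EGF at 48 h reached 6 and 9 in replicates A and B, and the 36 libraries of other groups lay between 0 and 3.

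Against CTRL, in comparisons that share the CTRL libraries and that were added after the values were seen, 6 of 223 loci (2.69%) were called in IFNG with EGF, against 2.7% of all sites. Of these 4 were higher, among them the HLA-B, HLA-DRB1 and 139 bp HLA-DQB1 loci, which had peaks in IFNG with EGF libraries only. Those loci met the minimum of 2 libraries only through that treatment, so their direction was given in advance. The share of 2.69% is therefore a description. Of the 2 lower, the locus 60415 bp from DDR1 had a peak in 3 of 4 CTRL libraries. In EGF against CTRL, 1 MHC locus (0.448%) was called, and it was lower, against 0.411% of all sites. HLA-DMA was not called against CTRL.

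The other ligands moved no MHC site on the primary copy past the threshold (limma). TGFB with EGF against EGF called 0 of 134 sites, against 0.00232% of all sites, with 1 higher and 6 lower at an unadjusted p below 0.05. EGF against PBS called 0, against 0.227% (3 higher and 11 lower unadjusted), HGF against PBS 0, against 0.000773% (5 and 9), and OSM against PBS 0, against 0.497% (2 and 12). Over all 129344 sites, 10066, 17157, 9550 and 17176 passed an unadjusted p below 0.05 in these contrasts, in the order given.

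No gene of the other lists had a called locus at its start over all copies (limma, IFNG with EGF against EGF). Of 30 genes of general cell function, 29 had a peak at a start on some copy and on the primary copy, with a median difference of -0.011, and RING1, a Polycomb ubiquitin ligase, had none. RNF5, AGPAT1 and the heat shock gene HSPA1B had a peak in 37 of 42 libraries, DAXX in 36, GTF2H4 in 32 and the bromodomain gene BRD2 in 31. WDR46 and PFDN6, which lie head to head, had one in 30 libraries but in 7 on the primary copy. HSPA1A and HSPA1B are near copies of each other, and the peak of one can hold reads of the other.

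Of 10 complement and cytokine genes, the complement genes C2 and CFB had a peak, in 5 and 22 libraries, with a median difference of 0.1. TNF, LTA, LTB, AIF1, LST1, NCR3 and the near-identical pair C4A and C4B had none. Of 6 TRIM genes, which encode ubiquitin ligases, TRIM26 had a peak in 25 libraries and TRIM39 in 18, with a median difference of 0.115, and TRIM10, TRIM15, TRIM31 and TRIM40 had none. Of 11 skin and mucosal genes, CCHCR1 and TCF19 had one in 29 libraries each, PSORS1C1 in 25 and the collagen receptor gene DDR1 in 24, with a median difference of -0.17. The starts of CDSN, PSORS1C2, POU5F1, MUC21, MUC22, C6orf15 and SFTA2 had none.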

How the data were processed

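Peaks of 42 ATACseq libraries were analysed in 13 groups taken from the labels. Reads were trimmed by the authors with Trimmomatic 0.36.5 and aligned to hg38, alternate contigs included, with Bowtie2 2.3.4.1. Secondary, unmapped and mitochondrial alignments and Picard duplicates were removed, and MACS2 2.1.1.20160309.5 called peaks in each library alone, without a control, at a q of 0.01. The deposited fold enrichment is a ratio of pileup to local background at the summit. The -log10 p and -log10 q values, the score (made from q) and the other columns (start, end and summit position in bp) are used as deposited by the authors. No read counts are given, so depth is unknown and the number of listed peaks was used beside each result.

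Alternate contigs were aligned to the primary region with minimap2 2.31-r1302, and 34 alternate peaks could not be placed. Peaks that overlapped were merged, and merged sites seen in 2 or more libraries were tested. Genes of GENCODE were given a peak where a summit lay within 1000 bp of a start. Adjusted detection was fitted with limma 3.58.1 in R 4.3.3 over all 13 groups (29 residual degrees of freedom), and shares were compared by exact permutation within times (1225 arrangements) in Python 3.11.15. Scripts were tested on simulated data. Named genes were those of the lists given in the report, and named sites were those called (at most 12), with loci seen in IFNG with EGF libraries only added after their values were seen. Of the general genes, ZNRD1 is an older symbol of POLR1H and was counted once. The members and lists were chosen with earlier results of these data known. Promoter sequences for HLA-E and HLA-DRA were not used here, and values of some genes of the lists are not reported here. Alternatives covered the peak threshold, detection measure, samples in the fit, replicate block, lane, alignment blocks and each library left out.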

Additional observations from a re-analysis of the deposited data

Results flagged for a closer look

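The share of alternate peaks that lay on chromosome 6 was 25.9%, 26.1%, 28.1% and 26% in the 4 CTRL libraries. Replicate C stood apart, with a gap to the nearest other library of 0.909 of the group's range, above Dixon's 95% critical value for 4 samples. It was 1 of 21 checks of this kind, and chance flags about 1 in 20 groups.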

How the results depend on the processing

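Peak lists without read counts limit every value here. For the 3 shares no alternative passed the test. Leaving out 1 library gave differences of -0.0346 to -0.00379 (primary), -0.152 to 0.0173 (alternate) and -6.34 to 1.24 (share of alternate peaks); the positive ends are without IFNG with EGF at 48 h replicate C. With the 5000 strongest peaks the differences in the last 2 shares were 0.0192 and 2.29, and without libraries under 30000 peaks 0.0399 and 2.4. Called primary sites were 0 with raw detection, the 4 groups alone, a negative log10 q of at least 5, or lane as a term, and 0 to 2 with 1 library left out; the RGL2 site was at -0.0275 under that q. Called loci were 1 with raw detection or 50 kb blocks, 0 with the 4 groups alone or that q, 6 without libraries under 30000 peaks, and 2 to 7 with 1 library left out: 6 without IFNG with EGF at 24 h replicate B, 5 without C and 7 without 48 h replicate C. Class II genes seen with IFNG only were 2 on the primary copy, 5 with 50 kb blocks, and 3 to 6 with 1 library left out. The limma adjusted p of HLA-DMA ran from 3.64e-07 to 0.0638 over the alternatives, the highest with the 4 groups alone. Over the genome 1455 sites rose and 299 fell, and 955 and 555 did with raw detection, which moved the median of all sites to -0.167, 415 and 0 with the 4 groups alone, 2801 and 612 without libraries under 30000 peaks, 3169 and 892 without IFNG with EGF at 48 h replicate C, 2582 and 337 without IFNG with EGF at 24 h replicate B, and 2257 and 935 at an adjusted p below 0.05. The cause was not tested. With the replicate block (letters A to C) the shares differed by -0.0212, -0.0585 and -2.4 (exact p = 0.406, 0.656 and 0.75), called primary sites were 0, called loci 2, and the genome had 1197 and 161. The deviations of libraries with the same letter correlated between -0.0942 and 0.0539, and no label ties letters to a shared batch, so the letters were taken as names only.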

Other observations

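The 9 chromosome 6 alternate contigs that are not MHC haplotypes held 648 peaks. CTRL libraries had 23 to 32 of them each, EGF libraries 10 to 29 and IFNG with EGF libraries 4 to 24.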
